A study of Mus musculus with 9 samples.

Results

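Gsc, T, Eomes, Mixl1, Foxa2, Sox17, Lhx1 and Cer1 are regulators of mesendoderm, the early layer from which mesoderm and endoderm arise. Around them, 12 of the 19165 sites that changed in accessibility after ERK activation were found in mouse embryonic stem cells. A site was given to one of these 8 genes where it was the nearest protein-coding gene body (RefSeq, GRCm38) within 100 kb of the site centre. Gsc had 7 sites, Eomes 2, Foxa2 2 and T 1, while Mixl1, Sox17, Lhx1 and Cer1 had 0. Accessibility fell at 8 of the 12 sites (background among all sites given to a protein-coding gene, 45.4%) and rose at 4 (background 54.6%), and 6 of the falls lay around Gsc. All 12 sites were outside protein-coding gene bodies, the nearest 12.0 kb from its gene, whereas 57.3% of all sites given to a gene had their centre inside one. That share covers genes of any length, while the 8 regulators are short, at 2.03 to 8.07 kb, so the comparison is not like with like. The share for short genes alone was not computed.

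ATAC-seq, which reads open chromatin through the insertions of the Tn5 transposase, was the assay. The cells were of the E14tg2a embryonic stem cell line (129SV background) and carried a stable cRAF-ErT2 cassette, a RAF kinase that 4-hydroxytamoxifen (4OHT) switches on and that in turn activates ERK. The 9 libraries comprised 3 of untreated cells (0 h), 3 after 1 h and 3 after 2 h of 250 nM 4OHT. All groups carried the cassette and had been grown in serum with LIF and 2 µM Chir99021, a GSK3 inhibitor, then for 24 h before treatment in serum with LIF and 250 nM PD173074, an FGF receptor inhibitor. No vehicle-treated group and no group without the cassette is among the 9 libraries, so effects of ERK, of 4OHT itself and of handling cannot be told apart. The labels do not say whether the cells were 1 clone or whether the libraries of a group came from separate cultures. The p-values of the authors then reflect only how far these libraries differ, and that spread may be technical.

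The values are those of the authors' deposited table, which holds, for each site that passed their test, the mean level of the control side and of the 4OHT side in log2 normalized reads. The 4OHT mean was taken to pool 1 h and 2 h, since the mean over all libraries equalled a mean weighted 3 to 6 to within 0.00986. The table gives 1 mean per side, so no value per library, SD or separate value at 1 h and 2 h can be given for any site, and read depth is unknown. Changes below are the 4OHT level minus the control level in log2 units. Every site in the table had an FDR of 0.01 or less. The listed sites were 7.86% of the sites tested, a number (about 243900) inferred from the FDR and p-values on the assumption of Benjamini-Hochberg adjustment. The table leaves out sites that did not pass, so a gene without a listed site may still have open, unchanged sites.

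In the embryo, Nodal and Wnt signals at the posterior epiblast switch on these genes as the primitive streak forms, and FGF signalling through ERK takes part in the formation and migration of mesoderm. Gsc, a homeobox gene encoding a repressor, marks the organizer and anterior streak. T (Brachyury) and Eomes encode T-box factors of mesoderm and of mesendoderm. Mixl1 is a homeobox gene of the streak, Foxa2 and Sox17 encode forkhead and HMG-box factors of definitive endoderm, Lhx1 is a LIM-homeobox gene of the organizer, and Cer1 encodes a secreted antagonist of Nodal, BMP and Wnt ligands. They are off or low in naive embryonic stem cells, and sites near them are read here in cells that had been treated for no more than 2 h.

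The promoters of Gsc, T and Eomes are shown, as the 250 bases before the start in the RefSeq promoter table (GRCm38.p6, 5′ to 3′ on the gene's strand), because the listed sites lay away from them. Distances of sites in the text are counted from the gene body. None of the 3 stretches was overlapped by a listed site. Capitals mark matches to the 7 motifs searched.
Gsc, chr12:104473237-104473486, minus strand: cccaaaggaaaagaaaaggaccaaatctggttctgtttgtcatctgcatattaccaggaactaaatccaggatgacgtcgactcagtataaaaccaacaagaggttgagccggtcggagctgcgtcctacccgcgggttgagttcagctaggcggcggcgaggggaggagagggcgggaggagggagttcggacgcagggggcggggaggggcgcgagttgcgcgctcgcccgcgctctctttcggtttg
T, chr17:8434173-8434422, plus strand: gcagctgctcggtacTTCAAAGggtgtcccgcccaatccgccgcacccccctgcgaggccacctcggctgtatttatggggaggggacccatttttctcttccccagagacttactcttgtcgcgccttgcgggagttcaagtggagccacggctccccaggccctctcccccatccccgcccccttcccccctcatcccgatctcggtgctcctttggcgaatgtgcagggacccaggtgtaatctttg
Eomes, chr9:118477939-118478188, plus strand: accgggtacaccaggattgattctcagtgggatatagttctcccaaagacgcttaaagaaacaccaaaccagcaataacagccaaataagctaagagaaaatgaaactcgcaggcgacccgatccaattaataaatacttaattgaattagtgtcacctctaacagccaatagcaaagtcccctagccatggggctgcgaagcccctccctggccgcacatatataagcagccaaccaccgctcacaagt
The motifs, searched on both strands, were ETS (CCGGAAG), TCF/LEF (CTTTGAT and CTTTGAA), a T-box half-site (AGGTGTG), a Gsc/Otx homeodomain site (TAATCC), forkhead (TGTTTAC) and AP-1 (TGANTCA). The only match was in T, where CTTTGAA lay on the opposite strand and began 235 bases before the start. CTTTGAA was present in 4.46% of the 32851 RefSeq promoters of this length, and the other motifs in 3.17% to 6.91%. Promoter entries were matched for 6 of the 8 genes, and no motif was found in those of Foxa2, Lhx1 and Cer1. GC content was 59.2% in Gsc, 62.8% in T and 46.4% in Eomes, against a median of 52.4% over all promoters. The Gsc stretch held 22 CpG dinucleotides, against 14 in T, 8 in Eomes and a median of 6.

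Gsc is a short gene of 2.03 kb on the minus strand of chromosome 12 (104471209 to 104473236, mm10). Its next protein-coding neighbours are Serpina3n, a serine protease inhibitor gene 56.9 kb beyond its 3′ end, and Dicer1, which encodes an RNase of microRNA processing, 215 kb upstream. The 7 listed sites spanned 95.2 kb, and no further listed site lay within 200 kb of the gene. From the site beyond the 3′ end to that 36.0 kb upstream, the 6 sites in a row all closed. The seventh and most distal site, 74.5 kb upstream, opened.

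The most accessible of the 12 sites lay 18.0 kb beyond the 3′ end of Gsc, at chromosome 12, 104452647 to 104453695. In the authors' deposited table its level was 10.46 in control and 9.57 in 4OHT libraries, or 1410 and 760 normalized reads. The log2 change was -0.89, a 1.85-fold loss (FDR 3.52e-04). At 1049 bp it was also the widest of the 12, and its control level stood at the 98.6th percentile of all listed sites. Lower listed sites with a similar mean level over all libraries (within 0.25 log2 units, n = 247) had a median change of -0.60. The loss at this site was larger than that median.

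A group of 3 closing sites lay 12.0 to 17.7 kb upstream of Gsc. The site nearest the gene, at 104484895 to 104485506, went from 8.39 to 7.41 (335 to 170 normalized reads), a change of -0.98 or 1.97-fold, with the smallest FDR of the 12 sites (4.07e-05) in the authors' deposited table. A narrow site of 188 bp, 821 bp further upstream at 104486328 to 104486515, went from 6.17 to 5.30, a change of -0.87 (FDR 0.00715). The site at 104490707 to 104491114, 17.7 kb upstream, went from 6.64 to 5.78, a change of -0.86 (FDR 0.00895). The latter pair lost less than the median of lower sites of similar level, which was -1.12 and -1.04, and the former more than its median of -0.86.

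A second group, a pair with a gap of 737 bp, lay about 35 kb upstream. Its more accessible site, at 104507781 to 104508398 (34.9 kb), went from 9.19 to 8.70 in the authors' deposited table, from 584 to 416 normalized reads. Its change of -0.49 (1.40-fold, FDR 0.00878) was the smallest of the 12 in size. Its neighbour at 104509136 to 104509370 (36.0 kb), 235 bp wide, went from 7 to 5.82, a change of -1.18 or 2.27-fold (FDR 4.26e-04), the largest loss at this locus. Within this pair the less open site thus changed more on the log2 scale. Both moved down, as did the pair 12.0 and 13.2 kb upstream. Of all neighbouring listed sites with a gap of up to 1 kb, 88.6% moved in the same direction.

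The opening site lay 74.5 kb upstream, at 104547524 to 104547866, with a gap of 38.2 kb to the next listed site. It went from 5.11 to 7.18 (34.5 to 145 normalized reads) in the authors' deposited table, a change of 2.07 or 4.20-fold (FDR 1.60e-04). In control libraries it was the least open of the 7 sites, and in 4OHT libraries it was the fourth most open. Higher sites of similar mean level had a median change of 1.49.

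**Figure D1:**
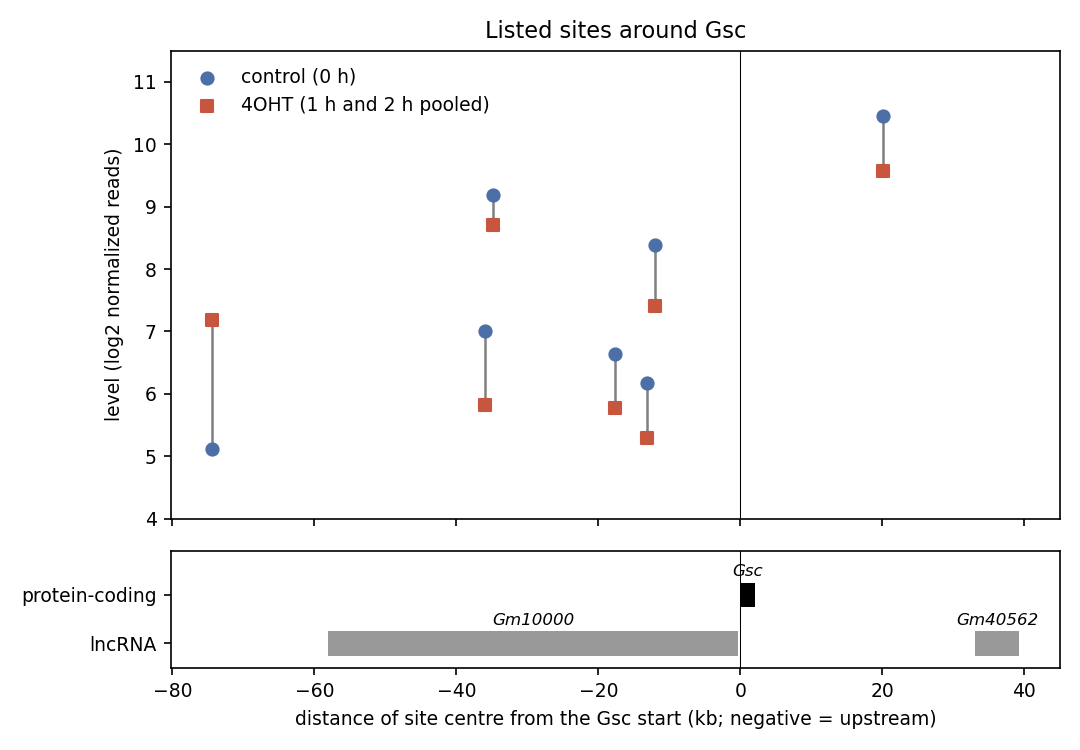
Levels at the 7 listed sites around Gsc in control (circles) and 4OHT libraries (squares), as log2 normalized reads from the authors' deposited table, against the distance of the site centre from the Gsc start in kb, with annotated genes below. The lines join the 2 values of a site; the 6 sites from 36.0 kb upstream to the far side of the gene were lower after 4OHT, and the one 74.5 kb upstream was higher. Each point is a mean over libraries with no error given in that table.

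Summed over the 7 Gsc sites, which cover 3453 bp, the level was 2662 normalized reads in control and 1642 in 4OHT libraries, a ratio of 0.617, or a mean of 380 against 235 per site. The 6 closing sites alone had a ratio of 0.570. The site beyond the 3′ end made up 52.9% of the control sum, so the sums follow it to a large extent. The median change over the 7 sites was -0.87, and that of all listed sites was 0.59. Of the Gsc sites, 85.7% were lower, against 45.4% of the 16454 listed sites given to a protein-coding gene, 48.3% of those in the range of mean levels of the 12 sites, and 50.4% of those outside gene bodies. Neighbouring listed sites with a gap of up to 1 kb mostly moved together (88.6%), and wider gaps, as between most of the Gsc sites, were not examined. The 7 sites of this locus are therefore not counted as 7 separate observations.

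The annotation around Gsc also holds the long non-coding RNA gene Gm10000, which lies 293 bp from the start of Gsc, on its upstream side, and reaches to 104531334. The 5 closing sites upstream of Gsc all lay inside Gm10000. With non-coding genes counted, these 5 sites and the opening site would be given to Gm10000 and the site on the other side of Gsc to Gm40562, another long non-coding RNA gene. Which gene a site acts on was not tested.

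Few short genes had as many listed sites. Of 7939 protein-coding genes of up to 10 kb, 16.2% had a listed site, 0.0756% (6 genes) had 7 or more, and 0.0504% (4 genes) had 6 or more that fell. The latter were Gsc, Hes1, a Notch target gene encoding a repressor (6 lower, 4 higher), Irf2bpl (7 lower, 1 higher) and Tmem17, a gene of the ciliary transition zone (7 lower, 1 higher). Gene length alone does not set how many sites a gene is given, as the distance to its neighbours counts too. Among the 88 genes of any length with exactly 7 listed sites, 20.5% had at least 6 that fell.

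By their median levels over sites, the 5 genes most like Gsc among 664 with at least 5 listed sites were Opcml, Tenm4, Zfp827, Zfp704 and Gm39147, at distances of 0.072 to 0.184 log2 units over 2 conditions. The Gsc medians, taken separately in each condition, were 7 in control and 7.18 in 4OHT libraries, although 6 of its 7 sites fell, because the opening site moved from the lowest place to the middle. Likeness by these medians did not carry the directions. Opcml had 5 lower and 2 higher sites, with a median change of -0.96, whereas Tenm4 had 5 lower and 8 higher, Zfp827 5 and 5, Zfp704 5 and 6, and Gm39147 1 and 4.

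The T-box genes had 3 sites in all. T had a single site, 31.4 kb beyond its 3′ end at chromosome 17, 8473729 to 8473999, which rose from 3.65 to 5.79 (12.6 to 55.3 normalized reads) in the authors' deposited table. The change of 2.14, or 4.41-fold (FDR 2.61e-04), was the largest of the 12. Its control level was at the 6.41th percentile of the listed sites, so the fold rests on few reads. Higher sites of similar level changed by a median of 1.74. Within 100 kb of T were 2 further listed sites, both given to Pde10a, a cyclic nucleotide phosphodiesterase gene, and both higher, with changes of 2.57 and 0.58.

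Eomes, on the plus strand of chromosome 9, had 1 opening and 1 closing site upstream. The site 56.8 kb upstream, at 118421175 to 118421597, rose from 5.20 to 6.31 in the authors' deposited table, a change of 1.11 (FDR 9.43e-04). The site 45.1 kb upstream, at 118432807 to 118433333, fell from 6.96 to 5.75, a change of -1.21 (FDR 0.00497). Before 4OHT the second was more open (124 against 36.8 normalized reads), and after it the order was turned (53.8 against 79.3). They lie inside the non-coding genes Platr11 and 4933432G23Rik. The listed site closest to Eomes, 26.7 kb away, lies inside Golga4, a Golgi protein gene, and changed by 1.76.

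The endoderm genes differed in the number of sites. Foxa2, on the minus strand of chromosome 2, had 2 sites upstream that moved in opposite directions, like those of Eomes. At 32.9 kb upstream (148079683 to 148080132) the level fell from 6.67 to 5.44 in the authors' deposited table, a change of -1.23 or 2.35-fold (FDR 0.0016), the largest loss of the 12. At 95.1 kb upstream (148141854 to 148142330) it rose from 5.02 to 6.77, a change of 1.75 or 3.36-fold (FDR 9.71e-04). This site was just inside the 100 kb limit, and the next site of Foxa2, 165 kb away on the other side, was outside it and changed by -0.82. Sox17 had no listed site within 200 kb, and the closest was 352 kb away and inside Rp1.

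Mixl1, Lhx1 and Cer1 had no listed site of their own, but sites of other genes lay near Mixl1 and Cer1. The listed site closest to Mixl1 was 22.4 kb away, given to Acbd3, and changed by 0.89, and 1 given to Parp1, 82.9 kb away, changed by -1.23. The site closest to Cer1 lay 32.6 kb away inside Zdhhc21 and rose from 6.2 to 8.36, a change of 2.16 (FDR 0.00711). The site closest to Lhx1 was 160 kb away, inside Acaca, and changed by 2.53. A listed site was given, by the nearest-gene rule, to 36.1% of the 21900 protein-coding genes and to 4 of the 8 regulators. Among the 7939 protein-coding genes of up to 10 kb, a range that holds all 8 regulators, the share was 16.2%.

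**Figure D2:**
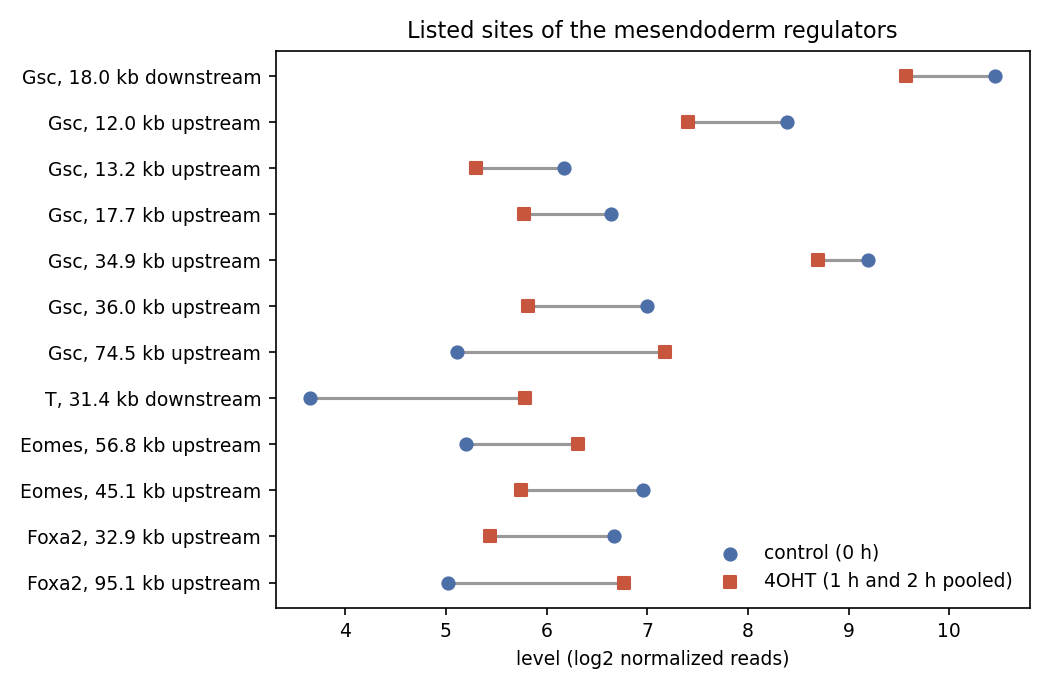
Levels at the 12 sites in control (circles) and 4OHT libraries (squares), as log2 normalized reads from the authors' deposited table, 1 row per site with its distance from the gene body. The 4 sites that rose started at 3.65 to 5.20 and the 8 that fell at 6.17 to 10.46; each point is a mean over libraries with no error given.

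Across the 12 sites, those that rose and those that fell did not overlap in control level. The 4 higher sites (Gsc, T, Eomes and Foxa2, 1 each) had control levels of 3.65 to 5.20, and the 8 lower sites of 6.17 to 10.46. In 4OHT libraries the ranges were 5.79 to 7.18 and 5.30 to 9.57 and overlapped. The control level enters the change, and all listed sites show the same order, with a median control level of 5.43 at higher and 7.83 at lower sites. Among listed sites with a mean level over all libraries similar to each of the 12, 33.5% to 60.7% were lower. The share of all listed sites within the control ranges of the 12 was not computed. Changes of 1.11 to 2.14 at the higher and of -0.49 to -1.23 at the lower sites can be set beside the medians of all listed sites, 1.46 and -0.94. The higher sites also lay far out, 31.4 to 95.1 kb from their gene, and all but that of T were more than 50 kb away, while the lower sites lay 12.0 to 45.1 kb away. Over all listed sites given to a gene, the lower share was 44.5% within 50 kb, 45.4% within 100 kb and 50.4% outside gene bodies. The 100 kb set contains the 50 kb set, so the shares by limit say little about distance. Sites at 50 to 100 kb were not counted apart. The order by distance among these 12 sites was not tested. Of the 12, 7 had an FDR under 0.001, among them all 4 that rose and 3 of the 8 that fell. Over all listed sites given to a gene, the lower share was 44.2% under this limit, against 45.4% without it. The shares of higher and of lower listed sites that passed this limit were not computed. Whether the split among the 12 differs from that of all listed sites was not tested.

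**Figure D3:**
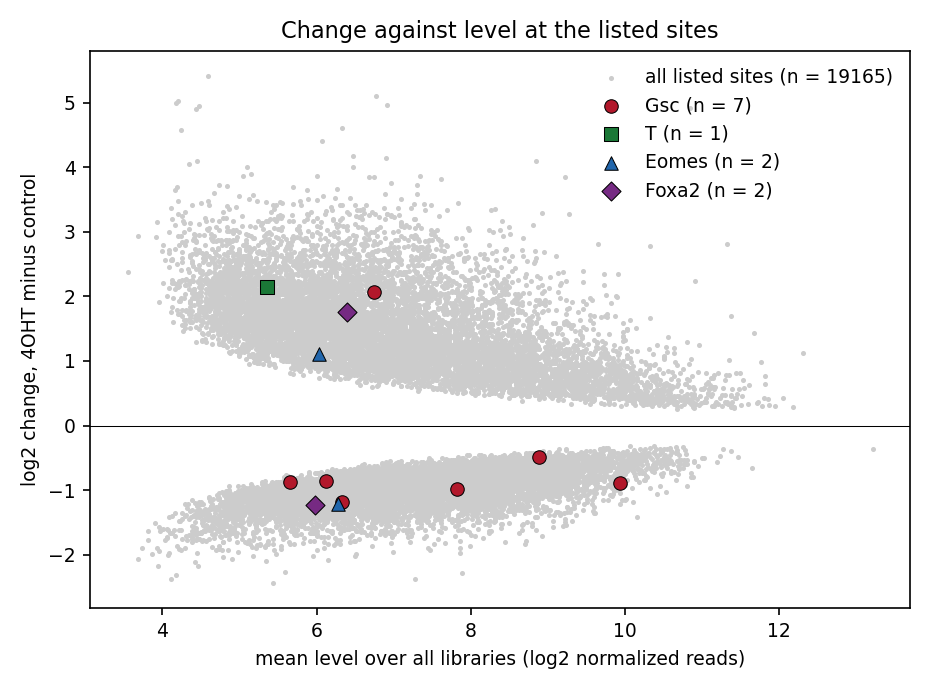
Log2 change (4OHT minus control) against the mean log2 level over all libraries at the 19165 listed sites (grey), with the sites of Gsc, T, Eomes and Foxa2 marked by colour and shape. The marked sites lie within the cloud of listed sites in both directions; the empty band around 0 is where sites did not pass the authors' test.

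Other genes of the streak and of mesendoderm had mostly closing sites. Of 24 such genes, 14 had a listed site (58.3%, against 36.1% of all protein-coding genes). That background was 16.2% for genes of up to 10 kb, and neither this list nor those below were matched for gene length. At 8 of the 14 genes every site was lower, at 3 every site was higher, and 3 had sites of both kinds. Together they held 31 sites, 23 lower (74.2%, against 45.4% of all sites given to a gene) and 8 higher, with a median change of -1. All 5 sites of Otx2, a homeobox gene of epiblast and anterior mesendoderm, all 3 of the Wnt antagonist gene Frzb and both of the BMP antagonist gene Nog were lower in the authors' deposited table. Their median changes were -1.31, -1.23 and -1.26. The single sites of Chrd, a further BMP antagonist gene, of Mesp1, a bHLH gene of nascent mesoderm, and of the endoderm factor gene Gata6 changed by -1.67, -1.17 and -1. Tbx3, a T-box gene, had 5 lower and 2 higher sites, Snai1, of epithelial-mesenchymal transition, 2 and 1, and Kdr, a VEGF receptor gene of early mesoderm, 1 and 2. Without Tbx3, the gene with the most sites, 18 sites were lower and 6 higher.

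The genes of the signals that act on these regulators had mostly opening sites. Of 24 genes for Nodal, Activin and Wnt signalling, 16 (66.7%, against 36.1% of all protein-coding genes, not matched for length) had a listed site. Of their 45 sites, 31 were higher (68.9%, against 54.6% of all sites given to a gene), with a median change of 1.19. All 8 sites of Skil, a repressor of Smad signalling, were higher (median change 1.335 in the authors' deposited table), as were both of Ctnnb1, the β-catenin gene. Tcf7l2 had 6 higher and 3 lower, and Tcf7l1, the main TCF repressor of embryonic stem cells, 3 and 2. Without Tcf7l2, the gene with the most sites, 25 sites were higher and 11 lower, and Skil alone held 8 of these higher sites. Single sites of Acvr2a, an Activin receptor gene, Smad4, Furin, a protease that processes pro-Nodal, and Tcf7 rose by 2.62, 2.05, 1.75 and 1.34. Pcsk6, a second such protease gene, had 3 higher and 1 lower, Smad7, an inhibitory Smad gene, 2 and 1, and Lefty1, a Nodal antagonist gene, 1 and 1. Smad3, a mediator of Nodal and Activin signals, had 1 higher and 3 lower. The ligand genes Nodal and Wnt3 had 1 lower site each, at -0.96 and -0.95 (chosen after their values were seen). The median control level was 7.85 over the sites of the streak list and 5.92 over those of this list, and its part in the directions was not tested.

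Lists of cell type markers give the setting. Their shares of lower sites can be read beside the 45.4% of all sites given to a gene. Their shares of genes with a site stand beside 36.1% of all protein-coding genes, which were not matched to them for length. Of 11 embryonic stem cell genes, 9 (81.8%) had listed sites, 12 higher and 16 lower (57.1% lower), at control levels from 5.61 to 11.14. The cell type label could not be checked further, since the table holds changed sites alone. Fibroblast genes, for feeder cells, had sites at 5 of 12 genes (41.7%), 4 higher and 13 lower (76.5% lower), of which Fn1, the fibronectin gene, held 9 of the lower. Without Fn1, 4 sites were higher and 4 lower, so the lower share of this list rests on that gene. Twist2 had 3 higher and 1 lower, Fbn1 1 and 1, and Col1a1 and Prrx1 had 1 lower site each. Visceral and primitive endoderm genes, a list that includes Foxa2 and Sox17, had 9 higher and 11 lower sites (55.0% lower) at 9 of 14 genes (64.3%). Its lower sites included 3 of Lamb1, a laminin gene, and its higher sites 4 of Sparc, a matrix protein gene. Cubn had 3 higher and 1 lower, and Col4a1 1 higher and 2 lower. In bulk cells, a change in the share of a cell type and a change within cells cannot be told apart.

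**Figure D4:**
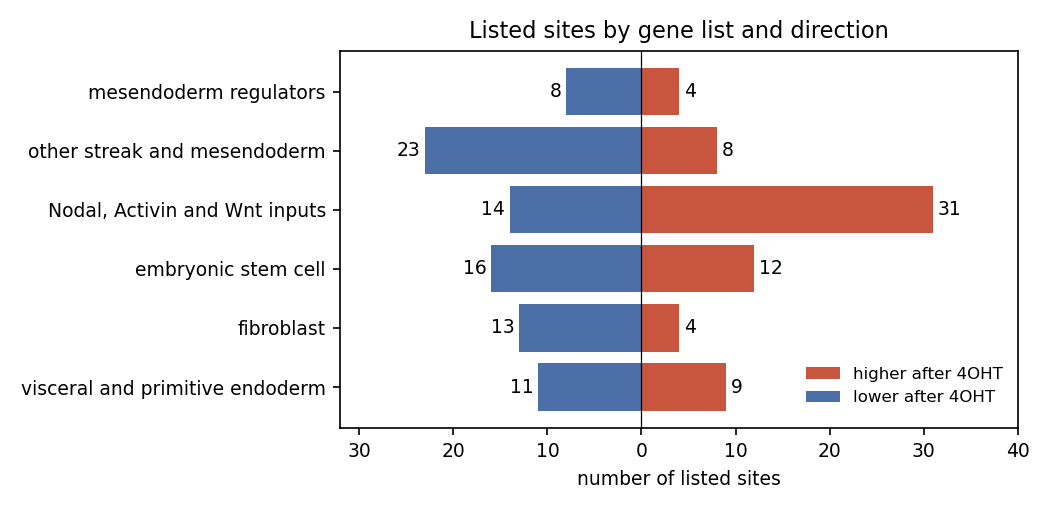
Number of listed sites lower (left) and higher (right) after 4OHT for the 8 mesendoderm regulators and 5 gene lists, each site given to the nearest protein-coding gene within 100 kb. The regulators had 8 lower and 4 higher sites and the other streak genes 23 and 8, while the signalling genes had 14 and 31. Foxa2 and Sox17 stand in both the regulator and the endoderm bars, and Gata6 in both the streak and the endoderm bars.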

How the data were processed

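ATAC-seq libraries of 3 groups (0 h, 1 h and 2 h of 4OHT, 3 libraries each, titled A, B and C) stand behind 1 deposited table. The description fields tag the libraries titled B as B2 and those titled C as B, so whether these are separate cultures is not settled. Per the submitters' processing notes, which state no versions or roles, the tools were Bowtie2, bedtools and MACS2 and the build was mm10. Not given in the sources used here are the differential test, the normalization, the read filters and any Tn5 offset. Levels are deposited log2 values and the fold is a deposited log2 difference of control minus 4OHT, per the file headers and from the values themselves. Each p-value and FDR was copied from the authors' deposited table without a new fit. The change used here is the difference of the deposited levels, within 0.01 of the fold with its sign turned.

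Sites were given to the nearest of 21900 protein-coding gene bodies (RefSeq, GRCm38.p6, the assembly mm10 names) by their centre. Strand came from the RefSeq promoter table, in which all 1685 overlaps of promoters on opposite strands were reverse complements. The regulators and lists were chosen with earlier results of these data known. Named were all sites of the 8 regulators and, of further lists, genes with at least 2 sites or a single change of at least 1 in size, except 1 gene that is not reported here. Genes like Gsc were the 5 nearest by Euclidean distance between median control and 4OHT levels. No test of lists was made, and shares are given beside those of all listed sites. Exons and introns were not told apart, and the bases of the sites themselves were not used here. Nearest-gene assignment was tested on simulated data. Columns of other samples numbered 0. Alternatives were other windows, limits and gene sets. Python 3.11.15, pandas 2.3.3, numpy 2.4.6 and matplotlib 3.10.9 were used.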

Additional observations from a re-analysis of the deposited data

How the results depend on the processing

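Within 200 kb, with the nearest gene end, and with every listed site within 100 kb of Gsc whatever its nearest gene, the counts for Gsc stayed at 6 lower and 1 higher, and the lower sites of the regulators numbered 8 or 9. Within 50 kb the regulators had 1 higher site, and Gsc 0, since the opening sites of Gsc, Eomes and Foxa2 lie farther out. With FDR under 0.001 the regulators kept 3 lower sites, all 3 of Gsc. With a change of at least 1 in size they also had 3 lower sites, but Gsc only 1, beside its 1 higher site, so that its median change turned to 0.445. Without Gsc the regulators had 2 lower and 3 higher sites. With non-coding genes counted, 1 higher site (of T) and 0 lower sites were given to the regulators, and 0 in either direction to Gsc, by construction, as other annotated genes lay closer. The share of lower sites over all listed sites given to a gene was 44.2% to 50.4% under these settings, except 30.8% with a change of at least 1. The authors' fold with its sign turned gave the same direction at all 12 sites. A band of 0.5 log2 units, chosen after the data were seen, moved the medians at similar level by at most 0.03. No paired analysis was possible because the table holds no values per library, and leaving out single libraries was not possible for the same reason. Depth limits what can be said of the T site, whose control level was 12.6 normalized reads.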
